A study of Vitis x labruscana x Vitis vinifera with 36 samples.

Results

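In berries of the table grape 'Shine Muscat' (Vitis labruscana x Vitis vinifera), 94 genes of 29971 with VIT identifiers rose at both sampling steps in 4 series: seedless skin, seeded skin, seedless flesh and seeded flesh. Each series was sampled at stages 1, 3 and 4. Membership was read from the data: a gene needed a mean of at least 10 CPM (its reads per 1000000 counts of a library) over the 36 libraries, which 9304 genes had. Its level, log2(mean CPM of the 3 libraries + 1), then had to be higher at stage 3 than at stage 1, higher at stage 4 than at stage 3, and higher by at least 1 over the whole span, in each series. Of the 9304 genes, 1330 rose at both steps in all 4 series by any amount and 94 met the minimum of 1. By the mirrored rule 115 genes fell.

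The seedless berries are called treated in the series title and the seeded berries nontreated; which agent was used, at what dose and on which dates the stages fell is not stated in the labels. Samples of a stage 2 are not analysed here. The groups were seedless skin, seeded skin, seedless flesh and seeded flesh at each of the 3 stages, 12 groups of 3 libraries. All come from a single cultivar, so the series is a model of that cultivar's berries and of 1 treatment comparison. The labels do not say whether the 3 libraries of a group came from separate vines, so p-values speak only of how much these libraries varied, which may be technical variation. The study also profiled volatile aroma compounds; those measurements are not used here.

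A grape berry grows in 2 phases separated by a lag, and ripening begins at the end of the lag, when the berry softens, takes up sugar, loses acid and starts to build its aroma. Grape is a fruit that ripens without the burst of ethylene and respiration seen in tomato or banana, and abscisic acid and sugar are known to promote its ripening. The skin is the outer layer of the berry, with a cuticle and most of the phenolic compounds, and the flesh is the juicy inner tissue in which most sugar is stored. Seeds are a source of hormones for the growing berry, and seedless table grapes are commonly produced with growth regulators such as gibberellin. The deposited table gives identifiers without names, so the genes appear by identifier only, and no function is stated for any of them. For the same reason the tissue labels could not be set against markers of skin, flesh or seed.

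Libraries held between 0.609 and 7.34 M counts (M, mega). Stage 1 depths were 2.96 to 4.02 M in seedless skin against 1.12 to 2.38 M in seeded skin, and 3.58 to 4.04 M in seedless flesh against 0.609 to 1.25 M in seeded flesh. With the 3 libraries of a group pooled, 2 members had under 10 reads in seedless skin at stage 1, 7 in seeded skin and 12 in seeded flesh at that stage, and 0 in the other 9 groups. Rows with ENSRNA identifiers took up to 3.14% of a library, with the highest shares, 0.923 to 3.14%, in seeded flesh at stage 1.

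In all 4 series the 94 genes together took a larger share of the reads at each later stage. In seedless skin they took 0.834% ± 0.032 of the counts at stage 1, then 1.54% ± 0.228, and by stage 4 2.64% ± 0.116 (SD, n = 3 libraries, as for all group means here). In seeded skin the shares were 0.338% ± 0.0199, 0.814% ± 0.0407 and 2.29% ± 0.419 at the same stages. Seedless flesh had 0.549% ± 0.0182, 1.35% ± 0.0728 and 2.22% ± 0.133, and seeded flesh 0.289% ± 0.0188, 0.661% ± 0.0871 and 2.06% ± 0.304. Seedless berries thus started higher in both tissues, and at stage 4 the ranges of the seedless and seeded libraries overlapped, with 2.57 to 2.77% in seedless skin, 1.86 to 2.69% in seeded skin, 2.10 to 2.37% in seedless flesh and 1.71 to 2.29% in seeded flesh. Since the rule chose the genes by these stage values, the increase is a description. In bulk tissue, more cells of a type and more RNA per cell cannot be told apart.

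A pair of genes supplied most of these reads. VIT_19s0090g01350 and VIT_06s0004g04650 together held 65.8% of the members' summed CPM over all libraries, and 33.5 to 79.5% in single libraries. The median member averaged 35.9 CPM over the 36 libraries, and 64 members averaged under 50 CPM. Without that pair, the other 92 genes took 0.206, 0.365 and 0.629% of the counts in seedless skin at stages 1, 3 and 4, and 0.138, 0.296 and 0.635% in seeded skin. In seedless flesh they took 0.281, 0.492 and 0.917%, and in seeded flesh 0.179, 0.331 and 0.869%. The higher seedless start and the near-equal end were thus also seen without the abundant pair.

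**Figure D1:**
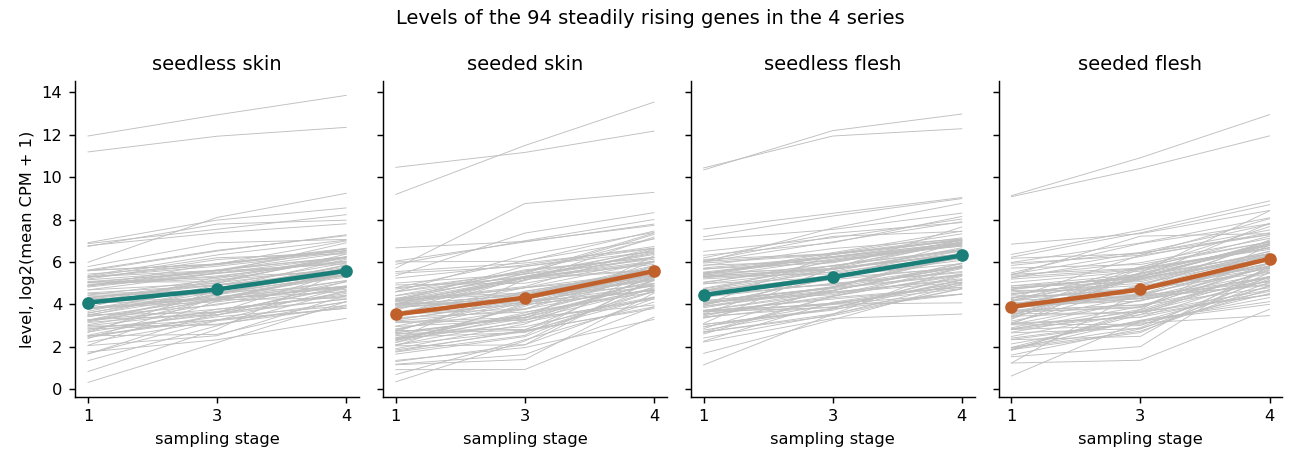
Levels of the 94 genes by stage in seedless skin, seeded skin, seedless flesh and seeded flesh, each as log2(mean CPM of 3 libraries + 1) on the vertical axis; grey lines are single genes and the heavy line is their median. The median member had 16.02, 25.2 and 47.0 CPM in seedless skin at stages 1, 3 and 4, and 10.6, 19.0 and 46.5 CPM in seeded skin.

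The median member climbed to a similar level in seedless and seeded berries from a lower start in the seeded ones. Its group mean was 16.02, 25.2 and 47.0 CPM in seedless skin at stages 1, 3 and 4, against 10.6, 19.0 and 46.5 CPM in seeded skin. In flesh it was 20.8, 38.2 and 78.4 CPM in seedless berries, against 13.8, 25.2 and 70.1 CPM in seeded berries. The rise over the whole span, in log2 units, had a median of 1.41 in seedless skin (range 1.00 to 4.82), 2.13 in seeded skin (1.02 to 4.79), 1.55 in seedless flesh (1.01 to 4.69) and 2.18 in seeded flesh (1.03 to 4.97). The rise was larger in seeded than in seedless berries for 78 of the 94 genes in skin and 74 in flesh. In the edgeR fits used below, the seedless rise was the larger in 16 members in each tissue. Over all genes tested it was the larger in 6868 of 14193 in skin and 6375 of 13639 in flesh. The rule set a minimum on the rise in each series, so the members' counts are not independent of their choice. Over all genes with at least 10 CPM the median change of the same span was 0.15 in seedless skin, 0.21 in seeded skin, 0.22 in seedless flesh and 0.21 in seeded flesh, and all 94 genes rose by more than that in every series. Relative to that shift the members' median rise was 1.27, 1.92, 1.33 and 1.97 in the same order of series. With TMM scaling (trimmed mean of M-values, which compensates for a few genes that take many reads) the all-gene shift was 0.02, 0.07, 0.01 and 0.08, and the members' median rise 1.28, 1.997, 1.34 and 2.06.

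By the rule the group means of every member rise at both steps, while its single libraries need not. In 93 of the 94 genes no library of stage 4 overlapped those of stage 1 in any series, as in 14.8% of the 9304 genes over the level minimum. For successive stages this held in 22 members, as in 0.742% of the 9304; both counts rest on values the rule used, so nothing is read from them. A step could be very small: the lowest rise from stage 1 to stage 3 was 0.01 log2 units in seedless skin, 0.01 in seeded skin, 0.12 in seedless flesh and 0.03 in seeded flesh. When CPM was taken on library sizes scaled by TMM, 51 genes met the rule, all of them among the 94.

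By stage 3 the median member had covered 48.6% of its log2 rise in seedless skin, 40.6% in seeded skin, 48.2% in seedless flesh and 32.6% in seeded flesh. The share by stage 3 was larger in seedless than in seeded berries for 52 of the 94 genes in skin and 65 in flesh. The step from stage 3 to stage 4 was the larger in 52 members in seedless skin, 65 in seeded skin, 51 in seedless flesh and 70 in seeded flesh. It was the larger in every series in 25 members, and the earlier step was the larger in every series in 4. Among the 11 members that rose by at least 2 log2 units in every series, VIT_07s0130g00200 had covered the largest mean share by stage 3, with 60.8%, and VIT_07s0005g00870 the smallest, with 24.5%.

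**Figure D2:**
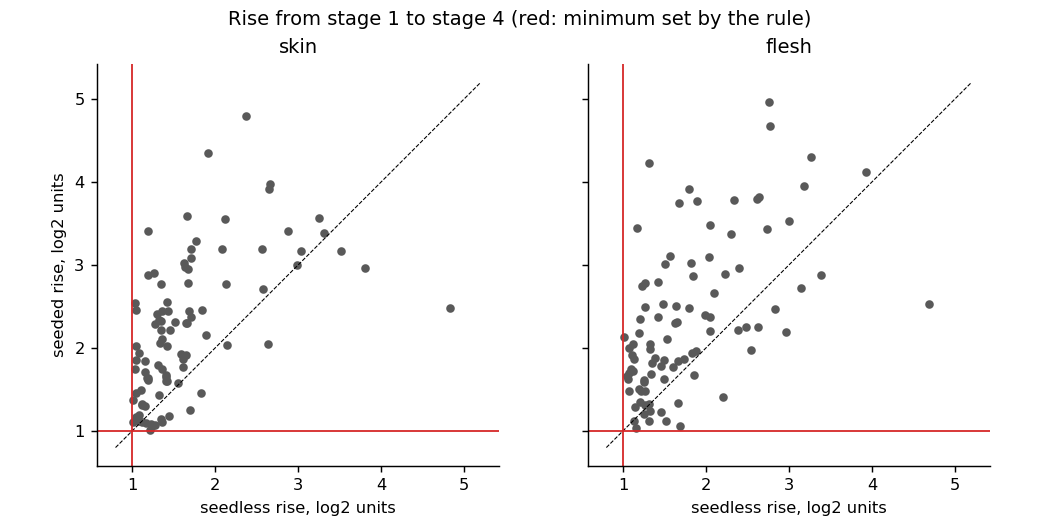
Rise from stage 1 to stage 4 of each of the 94 genes, in log2 units, in seedless (horizontal axis) and seeded (vertical axis) berries, with skin and flesh in separate panels; the line of equal rises is dashed and the rule's minimum of 1 is red. In skin 78 points and in flesh 74 points lie above the line, where the seeded rise is the larger. Both rises were used by the rule, so these counts are a description.

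VIT_19s0090g01350, the member with the most reads, began far lower in seeded than in seedless skin and nearly closed the gap. In seedless skin its libraries had 3634, 4155 and 4033 CPM at stage 1, 9764, 7111 and 6696 at stage 3 and 14550.1, 15594 and 14435 at stage 4. In seeded skin they had 503, 673 and 575, then 2338, 3159.9 and 3161, then 9424, 14593 and 11712 CPM. The seedless libraries all lay above the seeded ones at stages 1 and 3, and the groups overlapped at stage 4. The seedless-over-seeded difference in skin was 2.69 ± 0.18 (adjusted p = 2.9e-08) at stage 1, 1.36 ± 0.17 (adjusted p = 6.0e-05) at stage 3 and 0.26 ± 0.17 (adjusted p = 0.51) at stage 4 (log2 fold change ± SE and adjusted p, as in all such results here, from edgeR's quasi-likelihood test, Benjamini-Hochberg adjusted over the tested genes). In flesh the gene averaged 1298 ± 72.01, 4692 ± 102 and 8072 ± 570.4 CPM in seedless berries at stages 1, 3 and 4, against 559 ± 200.5, 1935 ± 336 and 7921 ± 1296 CPM in seeded berries.

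VIT_06s0004g04650, the other abundant member, followed the same order in flesh. Its seedless flesh libraries had 1447, 1373 and 1343 CPM at stage 1, 4558, 3596 and 3649 at stage 3 and 4386, 6129 and 4474 at stage 4. Its seeded flesh libraries had 575, 506 and 542, then 1167, 1948 and 981, then 2897, 4869 and 4096 CPM. The groups were apart at stages 1 and 3 and overlapped at stage 4. The difference in flesh was 1.34 ± 0.25 (adjusted p = 0.0026) at stage 1, 1.39 ± 0.24 (adjusted p = 0.0023) at stage 3 and 0.27 ± 0.24 (adjusted p = 0.68) at stage 4 by edgeR. In skin it was 0.65 ± 0.17 (adjusted p = 0.0096) at stage 1 and 0.68 ± 0.16 (adjusted p = 0.012) at stage 3.

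The series title sets treated seedless berries against nontreated seeded ones, and at stage 1 many of the rising genes were higher in the seedless berries. In skin 31 of the 94 were higher in seedless berries and 3 lower at an adjusted p under 0.05, against 10.4% higher and 9.87% lower of all 14193 genes tested (20.2% either way). In flesh 33 were higher and 0 lower, against 8.8% and 8.35% of 13639 genes (17.1% either way); at an unadjusted p under 0.05 edgeR gave 45 higher and 1 lower in flesh, and DESeq2 called 31 higher and 0 lower after adjustment. The median log2 difference of the 94 genes was 0.48 in skin and 0.57 in flesh, against 0.02 and 0.05 over all genes tested in those tissues. It was positive in 78 members in skin and 82 in flesh. In both tissues 20 members were called higher, against 3.87% of the 13228 genes tested in both. The rule used the group means compared here. These counts, and those at stages 3 and 4 below, are thus not independent of the choice of genes. Depth differed between these groups as given above; with every library thinned to 608901 counts, 18 members were called higher and 1 lower in skin, and 22 higher and 0 lower in flesh.

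VIT_14s0108g00800 showed the largest stage 1 difference in both tissues, from few reads in seeded berries. It averaged under 10 CPM over its seeded libraries and met the level minimum through the seedless ones, which favours a seedless excess. It had 4.98, 5.75 and 9.08 CPM in the seedless skin libraries, against 0.841, 0 and 1.02 in the seeded ones. In flesh it had 10.6, 14.4 and 11.7 CPM in seedless libraries, against 0, 1.64 and 0 in seeded ones. All seedless libraries lay above all seeded ones in both tissues, and the fitted differences were 3.06 ± 0.60 (adjusted p = 0.00022) in skin and 4.86 ± 0.72 (adjusted p = 4.9e-06) in flesh by edgeR. In flesh the pooled libraries held 141 reads in seedless and 1 read in seeded berries, a ratio of 31.7 after depth with an exact 95% interval of 5.598 to 1261, which covers counting error only. The fitted flesh difference was 8.75 without seeded replicate 2, the 1 seeded library with a read, and 3.98 without seeded replicate 3. With all libraries thinned to 1 depth the skin call was lost, with an edgeR adjusted p of 0.080. At stage 4 the gene averaged 16.4 ± 1.69 CPM in seedless and 16.3 ± 1.12 CPM in seeded skin.

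VIT_14s0171g00100 gave a similar picture at higher read numbers. In seedless flesh it had 75.2, 56.7 and 57.7 CPM at stage 1, 228, 143 and 210.0 at stage 3 and 438, 426 and 440.0 at stage 4. In seeded flesh it had 12.6, 11.5 and 5.59, then 39.3, 51.9 and 41.9, then 253, 409.8 and 359 CPM. The groups did not overlap at any stage, but the difference shrank, at 2.78 ± 0.31 (adjusted p = 4.9e-07) at stage 1, 1.99 ± 0.18 (adjusted p = 1.5e-08) at stage 3 and 0.29 ± 0.16 (adjusted p = 0.43) at stage 4 by edgeR. The change of the difference from stage 1 to stage 4 was -2.49 ± 0.36 (adjusted p = 3.7e-05). In skin its levels were lower and the difference was 1.17 ± 0.43 (adjusted p = 0.053) at stage 1 and 1.41 ± 0.27 (adjusted p = 0.00092) at stage 3.

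Among the 3 members that were lower in seedless skin at stage 1, VIT_10s0003g03790 stayed lower through ripening. It had 37.8, 31.8 and 28.8 CPM in seedless skin at stage 1, against 53.8, 67.2 and 69.1 in seeded skin, with no overlap. The difference was -1.01 ± 0.18 (adjusted p = 8.3e-05) at stage 1, -0.61 ± 0.16 (adjusted p = 0.0093) at stage 3 and -0.62 ± 0.15 (adjusted p = 0.011) at stage 4 by edgeR. In flesh the same gene was not called at any stage, with differences of 0.01 ± 0.28, 0.55 ± 0.20 and -0.31 ± 0.18 at stages 1, 3 and 4. VIT_05s0020g02500, which fell most in skin at stage 1, rested on 3 reads in seedless and 9 reads in seeded skin, a ratio of 0.168 with an exact 95% interval of 0.0292 to 0.672. Its edgeR adjusted p was 0.034, and 0.093, 0.085 and 0.33 without seedless replicate 2, seedless replicate 3 and seeded replicate 1.

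**Figure D3:**
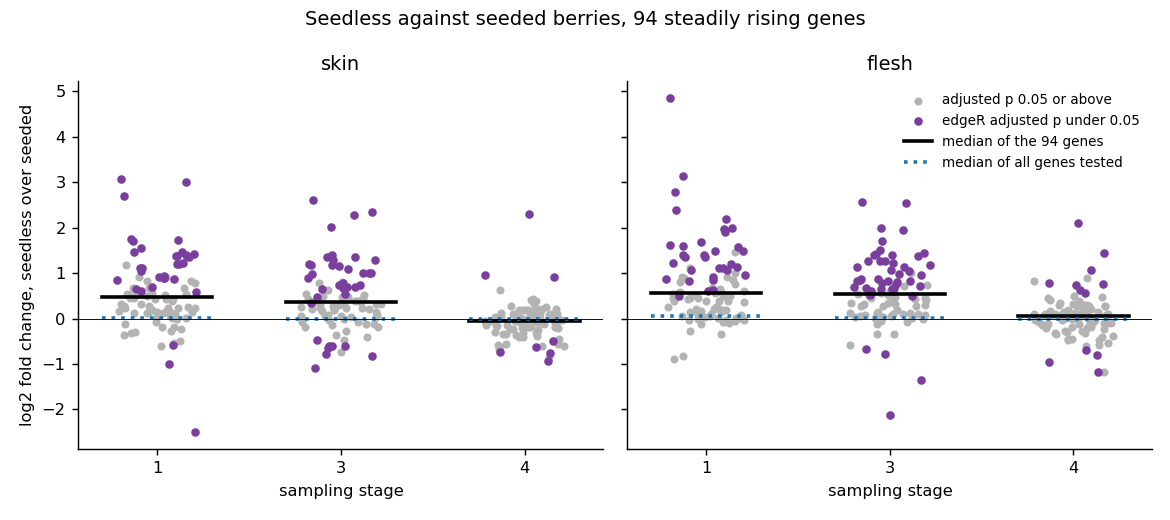
Log2 fold change of seedless over seeded berries for each of the 94 genes at stages 1, 3 and 4 (horizontal axis), with skin and flesh in separate panels; purple points passed an adjusted p of 0.05 in edgeR's test, the black bar is the members' median and the blue dotted bar the median of all genes tested. The members' median is 0.48, 0.35 and -0.06 in skin, and 0.57, 0.53 and 0.05 in flesh.

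At stage 3 the excess in seedless berries was still present, again in group means that the rule used. In skin 30 members were higher in seedless berries and 8 lower, against 5.14% higher and 5.47% lower of all genes tested (10.6% either way). In flesh 41 were higher and 4 lower, against 5.15% and 5.56% (10.7% either way). The members' median difference was 0.35 in skin and 0.53 in flesh, against 0.00 and 0.01 over all genes. In both tissues 24 members were called higher and 2 lower, against 2.18% higher and 2.25% lower of the 13228 genes. VIT_13s0067g03820 was the 1 member called lower in seedless skin and higher in seedless flesh, against 0.0302% of the 13228. At 1 common depth for all libraries 15 members were called higher and 1 lower in skin, and 24 higher and 2 lower in flesh.

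VIT_07s0005g00870 had the largest stage 3 difference in both tissues. Over its seeded libraries alone it averaged under the rule's minimum of 10 CPM, so its seedless libraries carried it into the set. That choice favours a seedless excess. It had 4.86, 4.25 and 9.25 CPM in seedless skin, against 1.16, 1.33 and 0.244 in seeded skin. In flesh it had 8.66, 10.5 and 12.8 CPM in seedless berries, against 1.95, 1.81 and 1.01 in seeded berries. The groups were apart in both tissues, with differences of 2.62 ± 0.56 (adjusted p = 0.0023) in skin and 2.56 ± 0.36 (adjusted p = 3.4e-06) in flesh by edgeR.

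VIT_17s0000g09770 was higher in seedless flesh at every stage, and its skin libraries overlapped at all 3. This gene, too, averaged under 10 CPM over its seeded libraries and met the level minimum through the seedless ones. In flesh it had 30.4, 38.5 and 41.7 CPM in seedless berries at stage 3, against 5.61, 8.45 and 3.02 in seeded berries. The flesh difference was 2.39 ± 0.49 (adjusted p = 0.00049) at stage 1, 2.55 ± 0.25 (adjusted p = 1.5e-09) at stage 3 and 1.45 ± 0.20 (adjusted p = 3.8e-06) at stage 4 by edgeR. In skin it was 0.53 ± 0.84, 0.39 ± 0.59 and -0.02 ± 0.50 at the same stages. Whether the tissues differ in this was not tested.

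Of the members that were lower in seedless berries at stage 3, VIT_09s0002g02940 and VIT_05s0062g00980 were called lower in both tissues. VIT_09s0002g02940 had 11.1, 9.26 and 16.5 CPM in seedless flesh, against 27.3, 29.6 and 29.1 in seeded flesh, and the difference was -1.35 ± 0.22 (adjusted p = 2.6e-05) by edgeR. Its skin difference had opposite signs at the first sampled stages: 1.20 ± 0.33 (adjusted p = 0.0075) at stage 1, and -0.83 ± 0.19 (adjusted p = 0.0027) at stage 3. Its stage 3 calls were lost when all libraries were thinned to 1 depth, with edgeR adjusted p of 0.18 in skin and 0.070 in flesh. VIT_02s0025g04300 had the largest flesh difference downwards and scattered widely between libraries, with 38.1, 29.1 and 45.1 CPM in seedless flesh, against 92.9, 138 and 214 in seeded flesh. The difference was -2.12 ± 0.48 (adjusted p = 0.013) by edgeR, and the adjusted p was 0.060 without seedless replicate 2 and 0.059 without seeded replicate 3.

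Across stages 1 and 3, 12 of the 94 genes were called higher in seedless berries in both tissues at both stages, against 0.476% of the 13228 genes tested in both tissues. They include VIT_19s0090g01350, VIT_06s0004g04650, VIT_14s0108g00800 and a pair that lies 8 identifiers apart, VIT_18s0072g01010 and VIT_18s0072g01090. As given above, VIT_14s0108g00800 met the level minimum only through its seedless libraries. In all, 62 members were called higher at stage 1 or 3 in either tissue and 11 lower, against 20.5% and 19% of the 13228 genes. In none of the 6 comparisons of the 3 stages and 2 tissues were 22 members called, against 60.7%. For 18 members in skin and 32 in flesh, the seeded mean at stage 3 was below the seedless mean at stage 1. The share over all genes was not computed and the rule used these means, so nothing is read from these counts. Over the 94 genes the skin and flesh differences correlated at r = 0.48, 0.64 and 0.68 at stages 1, 3 and 4, a description across genes that share their libraries.

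By stage 4 most of the difference had gone. In skin 3 members were higher in seedless berries and 5 lower, against 2.06% and 1.42% of all genes (3.48% either way), and the median difference was -0.06. In flesh 8 were higher and 4 lower, against 2.35% and 1.35% (3.7% either way), and the median was 0.05. The skin count of 8 dropped to 4 without seedless replicate 1, seedless replicate 3, seeded replicate 2 or seeded replicate 3, and to 5 without seedless replicate 2. The flesh count of 12 dropped to 6 without seedless replicate 2 and to 7 without seeded replicate 3. Thinned to 1 depth, the libraries gave counts of 4 in skin and 6 in flesh.

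A few genes stood apart from this closing gap. VIT_07s0005g00870 differed between seedless and seeded berries at stage 4 more than any other member, in both tissues. As given above, it met the level minimum only through its seedless libraries, which favours such a difference. It had 26.6, 62.7 and 59.6 CPM in seedless skin at stage 4, against 7.64, 14.4 and 6.72 in seeded skin, and 52.3, 59.5 and 57.1 in seedless flesh, against 9.05, 17.00 and 11.97 in seeded flesh. No seedless library overlapped a seeded one, and the differences were 2.30 ± 0.35 (adjusted p = 0.00019) in skin and 2.11 ± 0.24 (adjusted p = 1.1e-07) in flesh by edgeR. At stage 1 it had 0.746, 1.35 and 0.259 CPM in seedless skin and 1.68, 0 and 1.02 in seeded skin, and 0.839, 0.991 and 1.83 in seedless flesh and 0, 3.28 and 0.798 in seeded flesh. The flesh values rested on 14 pooled reads in seedless and 3 in seeded berries, a ratio of 1.05 with an exact 95% interval of 0.293 to 5.69. Its rise was 4.82 log2 units in seedless skin, 2.48 in seeded skin, 4.69 in seedless flesh and 2.53 in seeded flesh. The change of its difference from stage 1 to stage 4 was 2.90 ± 1.18 (adjusted p = 0.10) in skin and 2.06 ± 1.11 (adjusted p = 0.24) in flesh by edgeR, which did not pass the threshold at these read numbers.

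VIT_02s0033g01390 was the 1 member called higher in seedless berries in all 6 comparisons, against 0.0302% of the 13228 genes tested in both tissues, and was singled out after its values were seen. At stage 4 it had 82.00, 107 and 83.02 CPM in seedless skin, against 38.2, 51.3 and 48.4 in seeded skin, and 145, 136 and 126 in seedless flesh, against 76.7, 81.7 and 71.6 in seeded flesh. The stage 4 difference was 0.91 ± 0.16 (adjusted p = 0.00045) in skin and 0.76 ± 0.14 (adjusted p = 0.00039) in flesh by edgeR.

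VIT_05s0062g00980 was not called at stage 1 in either tissue and was lower in seedless berries later. Its seedless skin libraries had 26.1, 25.02 and 33.5 CPM at stage 1, 55.7, 50.04 and 74.4 at stage 3 and 87.9, 88.3 and 99.5 at stage 4. Its seeded skin libraries had 20.2, 18.8 and 31.2, then 78.98, 77.7 and 81.4, then 155, 170.1 and 177 CPM. The groups overlapped at stage 1 and were apart at stages 3 and 4, and the difference was 0.18 ± 0.19 (adjusted p = 0.55), then -0.48 ± 0.14 (adjusted p = 0.020), then -0.93 ± 0.14 (adjusted p = 4.1e-05) by edgeR. Flesh gave -0.13 ± 0.18 (adjusted p = 0.69), then -0.67 ± 0.14 (adjusted p = 0.00078), then -0.79 ± 0.13 (adjusted p = 0.00015) at the same stages.

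The largest falls in seedless flesh at stage 4 rested on fewer reads. VIT_12s0028g00670 had 24.6, 21.7 and 30.8 CPM in seedless flesh, against 41.2, 65.5 and 59.8 in seeded flesh, and a difference of -1.18 ± 0.32 (adjusted p = 0.042) by edgeR. That call was lost without any of 5 of the 6 libraries of the comparison, seeded replicate 1 being the exception, with adjusted p of 0.057 to 0.21. VIT_19s0014g04790 had 27.8, 27.1 and 35.7 CPM in seedless flesh, against 52.03, 50.3 and 65.5 in seeded flesh. At stage 3 its seedless flesh had been the higher, at 1.37 ± 0.33 (adjusted p = 0.0038) by edgeR, and was lower at stage 4, at -0.96 ± 0.21 (adjusted p = 0.0051). The stage 4 call was lost without seedless replicate 2, with an adjusted p of 0.060, and without seeded replicate 3, with 0.080.

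**Figure D4:**
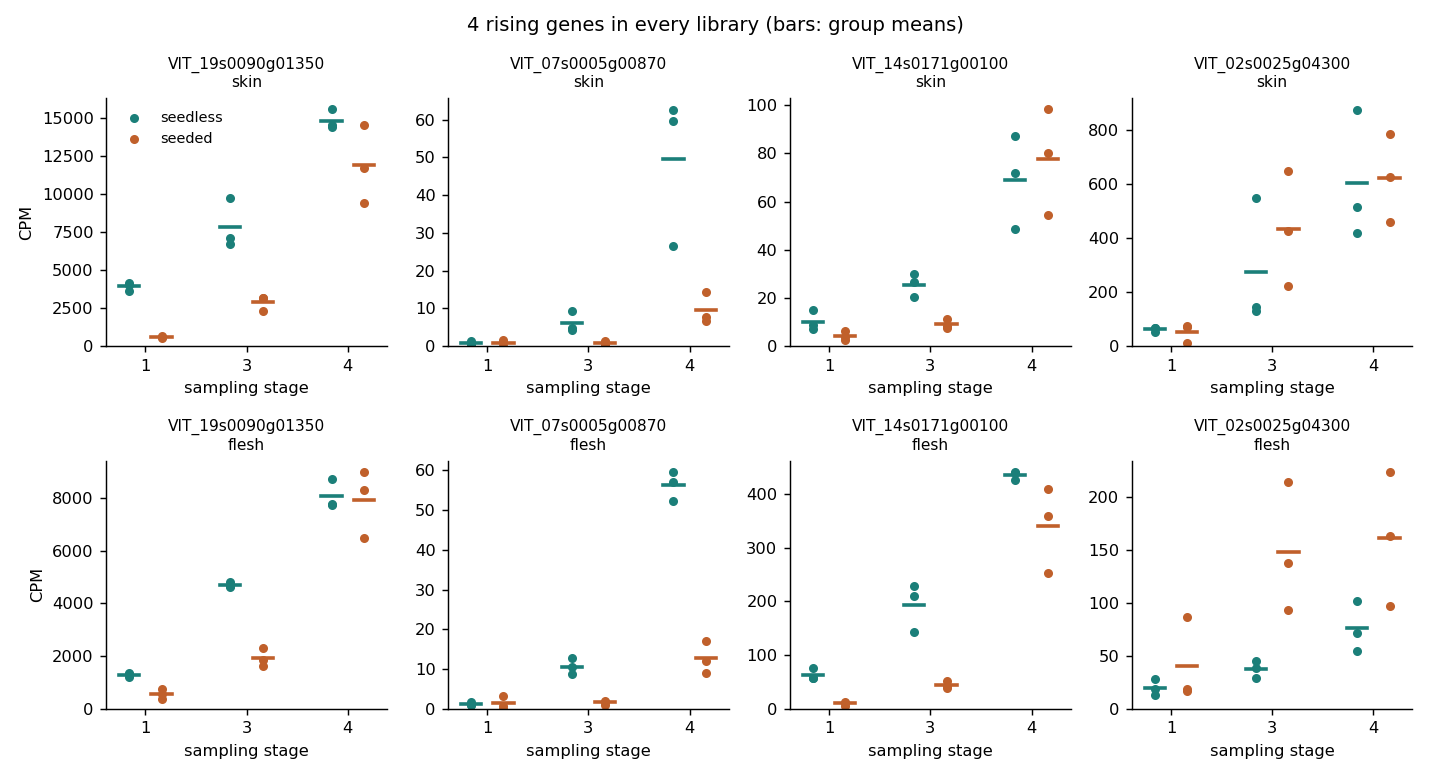
CPM in every library at stages 1, 3 and 4 for VIT_19s0090g01350, VIT_07s0005g00870, VIT_14s0171g00100 and VIT_02s0025g04300 (1 row of panels per tissue, linear vertical axis in CPM); points are single libraries, seedless left of seeded at each stage, and bars are group means. VIT_07s0005g00870 is apart at stage 4, where the seedless skin libraries reach 62.7 CPM and the seeded ones 14.4, while VIT_19s0090g01350 overlaps there.

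The shrinking of the difference was tested directly, as the change of the seedless-minus-seeded difference from stage 1 to stage 4. In skin 32 members were called and all 32 changes were negative, seedless berries losing ground to seeded ones, against 7.24% of all genes with a positive and 8.12% with a negative change (15.4% either way). In flesh 26 were called and all 26 were negative, against 5.8% and 6.41% (12.2% either way). Positive changes were called in 0 members in both tissues; at an unadjusted p under 0.05 edgeR gave 2 positive and 39 negative in skin and 1 positive and 40 negative in flesh, and DESeq2 called 1 positive and 31 negative in skin and 0 positive and 28 negative in flesh. The median change was -0.54 in skin and -0.62 in flesh, against -0.03 and -0.06 over all genes. The change equals the seedless rise minus the seeded rise, and the rule set a minimum on both rises, so the counts are not independent of how the genes were chosen.

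The counts of the change depended on single replicate numbers. Without replicate 3 of every group the skin count was 18, and without replicate 2 the flesh count was 15. With all libraries thinned to 1 depth they were 13 and 16, again all negative. Counted from stage 3 in place of stage 1, where the seeded libraries held 2.98 to 4.52 M counts, 17 members were called in skin and 22 in flesh, all negative. Of all genes, 4.16% had a positive and 3.33% a negative change in skin over that step (7.5% either way), and 2.31% and 1.76% in flesh (4.07% either way). That comparison was added after the data were examined.

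Among the largest such changes in skin were VIT_12s0028g00670, at -3.84 ± 0.97 (adjusted p = 0.0062), and VIT_14s0108g00800, at -3.10 ± 0.68 (adjusted p = 0.0012), by edgeR. VIT_12s0028g00670 had 2.99, 1.35 and 5.19 CPM in seedless skin at stage 1, against 0.841, 0 and 0 in seeded skin. At stage 4 it had 13.5, 26.4 and 21.7 in seedless skin, against 19.3, 42.8 and 41.1 in seeded skin. It thus began higher in seedless skin and ended with overlapping libraries and a lower seedless mean, but its seeded stage 1 value rested on 2 pooled reads, a seedless-over-seeded ratio of 9.06 with an exact 95% interval of 2.33 to 77.6. The stage 1 difference was 3.00 ± 0.95 (adjusted p = 0.023) by edgeR, with adjusted p of 0.11 without seedless replicate 3, 0.069 without seeded replicate 2, 0.11 without seeded replicate 3 and 0.38 with all libraries thinned to 1 depth. Without seeded replicate 1, which held both seeded reads, the fitted difference was 6.71. Its change was -7.61 without replicate 1, and was not called without replicate 3, with an adjusted p of 0.19. In flesh the largest changes were those of VIT_14s0108g00800, at -4.73 ± 0.79 (adjusted p = 6.4e-05), and VIT_07s0130g00200, at -2.79 ± 0.70 (adjusted p = 0.0061), by edgeR. VIT_07s0130g00200 had 12.02, 9.91 and 10.2 CPM in seedless flesh at stage 1, against 0, 3.28 and 0.798 in seeded flesh, the seeded value resting on 3 pooled reads. Its change was not called without replicate 3, with an adjusted p of 0.18. The flesh change of VIT_14s0108g00800, which met the level minimum only through its seedless libraries, was -8.24 without replicate 2. With all libraries thinned to 1 depth the changes of VIT_14s0108g00800 gave adjusted p of 0.12 in skin and 0.065 in flesh, and that of VIT_12s0028g00670 in skin gave 0.28. Counted from stage 3 in place of stage 1, none of these 4 changes was called, with adjusted p of 0.16 in skin and 0.35 in flesh for VIT_14s0108g00800, 0.25 for VIT_12s0028g00670 in skin and 0.23 for VIT_07s0130g00200 in flesh.

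The genes were also chosen from 2 replicate numbers and read in the number left out, an alternative added after the data were examined. This keeps only the scatter of the left-out libraries out of the choice. The same rule still set a minimum on both rises, so choice and difference are not separated by it. Left-out numbers 1, 2 and 3 gave 95, 80 and 82 genes, of which 74, 68 and 71 are among the 94. In the left-out libraries the median seedless-minus-seeded difference of log2(CPM + 1) was 0.61 to 0.69 in skin and 0.60 to 0.75 in flesh at stage 1. At stage 3 it was 0.30 to 0.59 in skin and 0.53 to 0.79 in flesh, and at stage 4 it was -0.16 to 0.09 in skin and -0.04 to 0.18 in flesh. The median rise in the left-out libraries was 1.34 to 1.54 in seedless skin, 1.95 to 2.41 in seeded skin, 1.45 to 1.62 in seedless flesh and 1.93 to 2.32 in seeded flesh. The ranges run over the 3 left-out numbers, and the seeded rise was above the seedless rise at each of them.

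The 115 steadily falling genes showed the opposite sign at stages 1 and 3. At stage 1, 73 were lower and 1 higher in seedless skin, against 9.87% and 10.4% of all genes tested. In seedless flesh 64 were lower and 0 higher, against 8.35% and 8.8%. The median differences were -0.70 in skin and -0.95 in flesh. At stage 3, 68 were lower and 0 higher in seedless skin, against 5.47% and 5.14%. In seedless flesh 43 were lower and 1 higher, against 5.56% and 5.15%. The medians were -0.75 in skin and -0.70 in flesh. At stage 4, 12 were higher and 0 lower in seedless skin, against 2.06% and 1.42%. In seedless flesh 4 were higher and 4 lower, against 2.35% and 1.35%. The medians were 0.14 in skin and -0.01 in flesh. The falling genes were chosen by stage values of these libraries, so their counts are not independent of that choice. Both sets share the same libraries, and the difference between the sets was not tested.

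Between tissues, more of the rising genes were lower than higher in skin relative to flesh, whereas over all genes more were higher in skin than lower. Averaged over seedless and seeded berries, 10 members were higher in skin and 42 lower at stage 1, against 20.1% and 15.3% of all 14841 genes tested (35.4% either way). At stage 3 it was 17 and 54, against 22.7% and 17.3% (40.1%), and at stage 4 it was 12 and 61, against 23.3% and 18% (41.3%). The members' median skin-over-flesh difference was -0.48, -0.47 and -0.51 log2 units at stages 1, 3 and 4, against 0.02, 0.01 and 0.00 over all genes. At all 3 stages 37 members were called lower in skin and 7 higher, against 7.72% and 13.7% of all genes. At no stage were 12 members called, against 42.3%. The level minimum of 10 CPM was a mean over both tissues. Some members averaged under it in skin alone, such as VIT_17s0000g09770, or in flesh alone, such as VIT_01s0026g00220. The rule also used the group means compared here, so these counts are not independent of the choice of genes. The skin-against-flesh tests took all libraries as independent, though each of the 36 correlated best with its own replicate number across tissues.

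VIT_01s0127g00470 had the largest difference downwards in skin at stages 3 and 4. Its stage 4 libraries had 22.5, 16.1 and 23.7 CPM in seedless skin and 20.7, 21.5 and 28.01 in seeded skin, against 144, 109.5 and 168 in seedless flesh and 176, 219 and 213 in seeded flesh. No skin library overlapped a flesh library, and the difference was -2.85 ± 0.17 (adjusted p = 1.2e-16) by edgeR. VIT_07s0130g00200 had -2.84 ± 0.21 (adjusted p = 3.3e-17) at stage 3 and -2.01 ± 0.17 (adjusted p = 5.2e-15) at stage 4. It averaged under 10 CPM over its skin libraries and met the level minimum through flesh, which favours a flesh excess. Its stage 4 libraries had 20.1, 15.9 and 18.05 CPM in seedless skin and 7.64, 18.2 and 15.7 in seeded skin, against 72.6, 89.1 and 74.8 in seedless flesh and 37.2, 64.4 and 76.3 in seeded flesh.

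VIT_02s0025g04300 led the members that were higher in skin. It had 876, 516 and 419 CPM in seedless skin and 626, 458 and 784 in seeded skin at stage 4, against 102, 54.6 and 71.7 in seedless flesh and 163, 96.9 and 224 in seeded flesh. Every skin library lay above every flesh library, and the difference was 2.54 ± 0.40 (adjusted p = 9.4e-06) by edgeR. At stage 1 the tissues overlapped, at 1.09 ± 0.54 (adjusted p = 0.12).

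VIT_19s0014g02190 was higher in skin at all 3 stages. It averaged 47.7 ± 1.24 CPM in seedless skin and 17.2 ± 4.53 in seeded skin at stage 1, against 15.9 ± 3.57 in seedless flesh and 2.597 ± 3.36 in seeded flesh. The difference was 1.97 ± 0.22 (adjusted p = 9.3e-11) at stage 1, 1.62 ± 0.13 (adjusted p = 1.5e-16) at stage 3 and 1.07 ± 0.11 (adjusted p = 1.2e-11) at stage 4 by edgeR, and the stage 1 value was 3.22 without replicate 3.

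**Figure D5:**
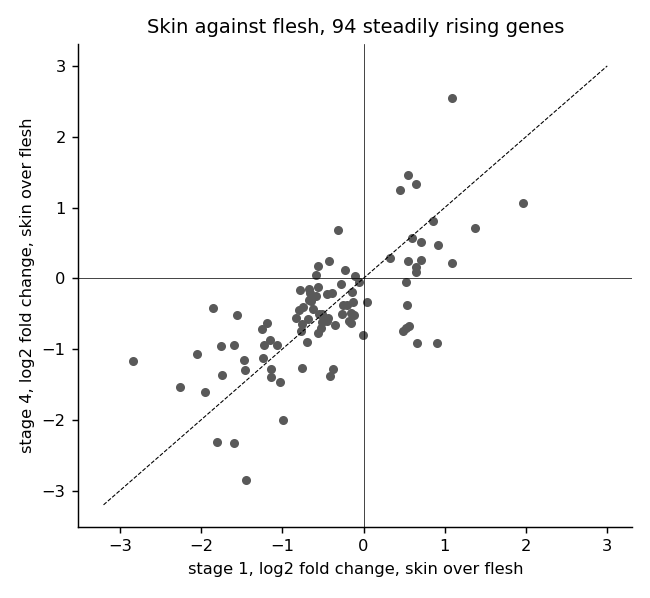
Log2 fold change of skin over flesh for each of the 94 genes at stage 1 (horizontal axis) and stage 4 (vertical axis), averaged over seedless and seeded berries. Most points lie below 0 on both axes, and the medians are -0.48 at stage 1 and -0.51 at stage 4.

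The size of the rise itself differed between tissues in fewer genes. The rule set a minimum on these rises, so the counts that follow are not independent of the choice of genes. The change from stage 1 to stage 4 was larger in skin in 7 members and smaller in 11, against 5.96% and 3.68% of all genes (9.64% either way), and the median difference was -0.01. Without replicate 1, 2 or 3 of every group the count of 18 dropped to 9, 7 and 7, and with all libraries thinned to 1 depth it was 5. VIT_13s0067g03820 showed the largest smaller rise in skin, at -1.81 ± 0.19 (adjusted p = 2.9e-10) by edgeR. It had 27.9, 34.1 and 33.2 CPM in seedless skin at stage 1 and 81.4, 70.2 and 72.4 at stage 4. In seedless flesh it had 24.05, 21.1 and 20.4 CPM at stage 1 and 175, 201 and 226 at stage 4. It was thus higher in skin at stage 1, at 0.90 ± 0.16 (adjusted p = 5.1e-06), and lower in skin at stage 4, at -0.91 ± 0.11 (adjusted p = 5.8e-10).

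VIT_14s0068g00740 had the largest mean rise of the 94 genes, 3.68 log2 units, and shows how far a member can be from a steady climb. Its libraries had 3.23, 4.06 and 2.33 CPM in seedless skin at stage 1, 14.6, 10.4 and 25.9 at stage 3 and 35.7, 55.9 and 49.8 at stage 4. In seeded skin they had 4.203, 2.69 and 2.56, then 2.79, 5.09 and 1.95, then 30.1, 44.1 and 34.2 CPM. The seeded skin libraries of stages 1 and 3 overlapped, and nearly all of that rise came after stage 3. At stage 3 the seedless-over-seeded difference was 2.27 ± 0.33 (adjusted p = 1.0e-05) in skin and 1.95 ± 0.22 (adjusted p = 2.0e-07) in flesh by edgeR, and at stages 1 and 4 the groups overlapped in both tissues.

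By the first number of their identifiers, which in the grape gene models names the chromosome, the members spread over 18 numbers. The most lay under number 14, with 12 members or 1.92% of its 626 genes over the level minimum, and under number 19, with 10 members or 2.63% of 380. Of the members, 3 pairs lay within 10 identifiers of each other, among them VIT_01s0026g00740 with VIT_01s0026g00820 and VIT_18s0072g01010 with VIT_18s0072g01090. Neighbouring copies can share reads, and the rule by which the authors assigned reads with several matches is not stated in the labels.

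The thresholds cut through a continuum. The members with the lowest mean level were VIT_14s0068g00130 with 10.6 CPM and VIT_01s0026g00220 with 11.3 CPM, and the genes just outside were VIT_02s0033g01170 with 9.96 CPM and VIT_15s0046g01370 with 9.63 CPM. The members whose smallest rise was nearest the minimum were VIT_01s0026g00820 with 1.00 and VIT_09s0002g07110 with 1.01 log2 units. Just outside lay VIT_04s0023g00130 and VIT_05s0029g00240, each with 0.997.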

How the data were processed

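The authors deposited 1 table of raw read counts (whole numbers, not normalized) with 29971 VIT and 690 ENSRNA rows. Total RNA was made into Lasy-seq libraries, which read mainly 3′ ends, per the labels' protocols. Reads were handled with fastp 0.20.0, HISAT2 2.2.1 and featureCounts, per the submitters' processing notes; the labels state no build, annotation or strand setting. Reads are not independent molecules, so exact (Clopper-Pearson) intervals cover counting error only. Depth was 0.609 to 7.34 M counts per library.

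CPM is count over column total. Tests were run in R 4.3.3 with edgeR 4.0.16, after filterByExpr with a minimum count of 10: TMM, robust quasi-likelihood F-test, Benjamini-Hochberg adjustment over all genes tested, threshold 0.05. Skin and flesh were fitted apart (18 libraries each), and together (36 libraries) for skin against flesh. All 94 members passed the filter in each fit. SE is the log2 fold change over the square root of F. Alternatives were DESeq2 1.42.0, thinning to 1 depth, other scalings and filters, a replicate block and leaving out libraries; the code was tested on simulated data.

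The members and lists were chosen with earlier results of these data known. No annotation was used, so 24 lists of gene products, tissue markers and promoter motifs were not matched and have no result. Genes are named by a rule (most reads, largest rises, and the largest called differences each way, for seedless against seeded only where libraries do not overlap), with at most 2 each way per comparison because the files pair no names with identifiers. VIT_02s0033g01390, VIT_13s0067g03820 at stage 3, VIT_05s0062g00980 at stage 3 and the pairs of neighbours were singled out after their values were seen.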

Additional observations from a re-analysis of the deposited data

Results flagged for a closer look

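The seedless-against-seeded difference of the rising genes was not the same at stages 1 and 4, by edgeR's test of the change itself. It was called in 32 members in skin and 26 in flesh, all in the direction of seedless berries losing their excess. The change equals the seedless rise minus the seeded rise, on both of which the choice of genes set a minimum, so these counts are not independent of that choice. The largest changes in skin were VIT_12s0028g00670 at -3.84 log2 units and VIT_14s0108g00800 at -3.10, and in flesh VIT_14s0108g00800 at -4.73 and VIT_07s0130g00200 at -2.79. None of these 4 was called when the change was counted from stage 3, with adjusted p of 0.16 to 0.35. VIT_14s0108g00800 met the level minimum only through its seedless libraries. With all libraries thinned to 1 depth both skin changes and the flesh change of VIT_14s0108g00800 lost their calls, with adjusted p of 0.28, 0.12 and 0.065, and without replicate 3 that of VIT_12s0028g00670 in skin and that of VIT_07s0130g00200 in flesh gave 0.19 and 0.18.

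The stage 1 to stage 4 change differed between skin and flesh in 18 members. The rule set a minimum on this change in each series, so the count is not independent of the choice of genes. The change was larger in skin for VIT_05s0020g02500, by 1.68 log2 units, and VIT_05s0020g04380, by 1.04. It was smaller in skin for VIT_13s0067g03820, at -1.81, and VIT_14s0068g00300, at -1.57. VIT_05s0020g02500 and VIT_14s0068g00300 averaged under 10 CPM over their skin libraries and met the level minimum through flesh. The edgeR adjusted p of VIT_05s0020g02500 was 0.029, and 0.39 and 0.066 without replicates 2 and 3. That of VIT_05s0020g04380 was 0.030, and 0.12 and 0.22 without replicates 1 and 2. That of VIT_14s0068g00300 was 0.0087, and 0.11 and 0.094 without replicates 1 and 3. VIT_13s0067g03820 kept its call under each alternative, with adjusted p from 1.7e-20 to 0.00030. Groups of 3 libraries were not screened for single outlying samples.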

How the results depend on the processing

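Of 132 counts under an alternative, 106 were within 1.5 times the reported count and 26 were not; no named gene of 628 checks reversed, 564 kept their side of the threshold and 64 lost the call. With all libraries thinned to 608901 counts the calls were 19, 16 and 4 in skin at stages 1, 3 and 4, 26 and 6 in flesh at stages 3 and 4, 13 and 16 for the change in skin and flesh, 47 for skin against flesh at stage 3 and 5 for the tissue difference of the rise; thinning removes reads, and other causes of these losses were not tested. With only the 6 libraries compared, skin at stage 4 had 13 calls. Counted from stage 3, the change in skin had 17. The number of rising genes was 51 with TMM-scaled CPM, 500 with a minimum rise of 0.5 and 11 with a minimum of 2; the cause of the drop with TMM was not tested. Leaving out 1 replicate gave 80 to 95 rising genes; 26 to 34, 26 to 35 and 4 to 10 calls in skin and 27 to 32, 36 to 42 and 6 to 9 in flesh at stages 1, 3 and 4; 18 to 28 and 15 to 21 for the change in skin and flesh; 46 to 50, 65 and 64 to 67 for skin against flesh; and 7 to 9 for the tissue difference of the rise. Same-numbered libraries deviated together at r = -0.11 to 0.21 between seedless and seeded and 0.07 to 0.29 between skin and flesh. The numbers were not taken as pairs. Each of 36 libraries, however, correlated best with its own number across tissues, and 22 did across treatments. Skin and flesh libraries of 1 number may thus be linked, and the skin-against-flesh tests took them as independent. The replicate block holds 1 effect per number over all groups, so it does not model a pair within each treatment and stage. With the replicate block the calls were 34, 37 and 9 in skin and 35, 46 and 12 in flesh at stages 1, 3 and 4, 33 and 29 for the change in skin and flesh, 52, 72 and 73 for skin against flesh and 18 for the tissue difference of the rise. Depth limits the stage 1 values of seeded flesh most.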
